A study of Caenorhabditis elegans with 34 samples.

Results

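The first day-to-day step of a time course of Caenorhabditis elegans was described here, from the libraries labelled day 1 to those labelled day 2. The comparison used 6 of the 34 samples of the series, the 3 day 1 libraries and the 3 day 2 libraries, which were chosen by the day in their labels. Both groups were whole animals that carried spe-9(hc88), a temperature-sensitive mutation that leaves hermaphrodites without functional sperm at the restrictive temperature, and both were kept at 25 °C on OP50 bacteria. Synchronized first-stage larvae were placed on 12 plates, 1 plate was collected every 24 hours, and this was repeated 3 times, so that replicates came from separate populations while the day and the plate cannot be told apart. The labels name the day alone and give no larval or adult stage. Reads assigned to genes numbered 21249196, 23660915 and 21115003 in the day 1 libraries and 24379057, 24076321 and 25258521 in the day 2 libraries. Levels are given in library order as CPM, counts per 1000000 after TMM scaling, changes as log2 fold changes of day 2 over day 1 ± standard error over 3 libraries a day, and p-values from the quasi-likelihood test of edgeR with Benjamini-Hochberg adjustment, with genes called at an adjusted p under 0.01. A CPM value is a share of the sequenced RNA of a whole animal, and fewer cells of a type and less RNA per cell cannot be told apart in it.

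A hermaphrodite reaches adulthood through a final molt, in which the epidermis builds a new cuticle of collagens under the old one and sheds it. Over the same period the germ line grows, changes from making sperm to making oocytes, and loads oocytes with RNA and protein for the embryo, while the intestine begins to make the vitellogenins, the yolk proteins that oocytes take up. Genes of these processes, of their counterparts in muscle, nerve and gut, and of large numbered families were therefore followed.

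Of 14911 genes tested, 10563 changed between day 1 and day 2 (70.8%). On day 2, 5235 were higher (35.1%) and 5328 were lower (35.7%). These 2 shares are the background for every count of called members in the lists and families below. The fitted change exceeded 4-fold upward in 2918 called genes and downward in 3714, and it exceeded 32-fold in 1191 and 917, counts that depend on the prior count of the fit where a gene had no count on 1 day. The median absolute log2 fold change was 1.85, against 0.27 in the next step, from day 2 to day 3, where 577 of 13834 genes were called (4.17%). The median over all genes was -0.10 with TMM scaling. It moved by 0.12 with size factors from relative log expression, by -0.13 with library size alone and by 0.19 when a trend with gene length was removed, so changes of this size are not given a direction below. The first principal component held 93.8% of the variance and separated the days, and the correlation of log CPM was 0.959 to 0.990 within a day and 0.563 to 0.605 between days.

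**Figure D1:**
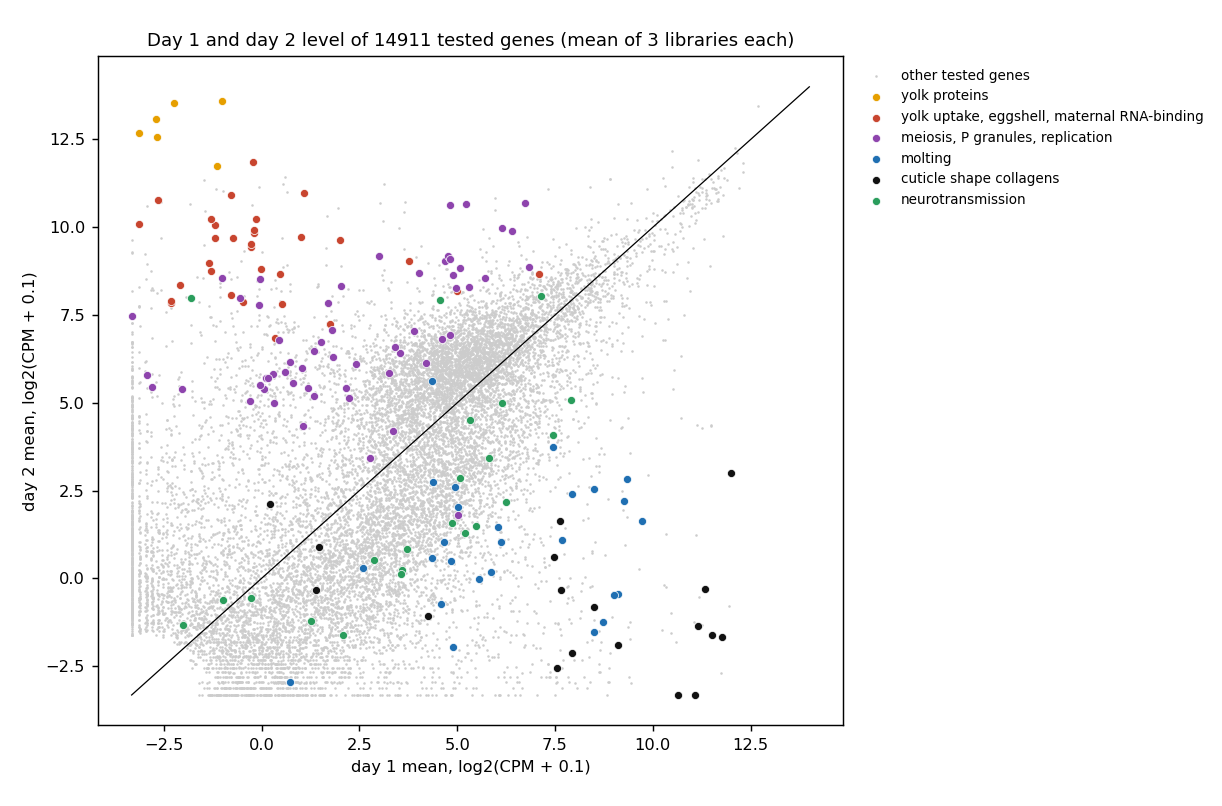
Mean level of each of the 14911 tested genes on day 1 (horizontal) and day 2 (vertical), both as log2(CPM + 0.1) over 3 libraries, with the line of equal levels and members of 9 gene lists in colour. Yolk, eggshell and maternal genes lie far above the line on the left, while molting genes and cuticle shape collagens lie far below it on the right.

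A gene was taken as switched on when it was called higher, lay under 1 CPM in all 3 day 1 libraries and reached 5 CPM in all 3 day 2 libraries, and as switched off in the mirror case. By this description 519 genes switched on (3.48%) and 543 switched off (3.64%). Of the former, 152 had no count in any day 1 library, and of the latter 28 had none in any day 2 library. The genes switched on included all 6 vitellogenins and 8 of 13 genes for yolk uptake and the eggshell. They also included 10 of 18 maternal RNA-binding proteins and 14 of 124 tested numbered collagens. Those switched off included 11 of 18 tested cuticle shape collagens and 24 of 124 numbered collagens. They also included 15 of 39 tested hedgehog-like genes and 6 of 31 cuticlins. The shares to set beside these counts are the 3.48 and 3.64% over all tested genes.

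Of the genes switched on, the vitellogenins took the most counts. All 6 vitellogenins rose, with a median log2 fold change of 16.58, and together they took 4.91, 5.00 and 4.13% of the gene counts in the day 2 libraries after no more than 0.00014% in any day 1 library. vit-2 (WBGene00006926, chromosome X, 5101042 to 5106169, plus strand, WBcel235) stood at 0, 0.241 and 0.0932 CPM on day 1 and at 13129, 11676 and 10938 CPM on day 2, a log2 fold change of 16.59 ± 0.60 (edgeR, adjusted p = 1.01e-06). vit-6 on chromosome IV, from whose product the smaller yolk polypeptides are cut, went from 0.263, 0.642 and 0.28 CPM to 13721, 12475 and 10805 CPM. The groups lay far apart in every library for these genes. vit-3, vit-4 and vit-5 are near-identical copies on the X chromosome, and how reads were divided among them is uncertain. vit-5 went from 0, 0.16 and 0 CPM to 9391, 9195 and 7602 CPM. For vit-4, 1 read was counted on day 1 and 459339 on day 2, a ratio of 451733 with a 95% counting interval of 81077 to 17842500. On day 2 vit-6, vit-2, vit-5, vit-4 and vit-3 were 5 of the 6 genes with the highest CPM.

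Genes that let oocytes take up yolk and build the eggshell rose as a whole, 13 of 13 tested, with a median log2 fold change of 10.30. rme-2 (WBGene00004374, chromosome IV, 5470026 to 5473174, plus strand), which encodes the yolk receptor of the oocyte, had 0.526, 0.201 and 0.186 CPM on day 1 and 1241, 1151 and 1208 CPM on day 2. Its log2 fold change was 11.92 ± 0.38 (edgeR, adjusted p = 6.95e-07). cpg-2, a chondroitin proteoglycan of the eggshell, rose from 0.833, 0.963 and 0.466 CPM to 4019, 3151 and 4048 CPM. cbd-1, a chitin-binding protein of the vitelline layer, had 2.54, 1.64 and 1.86 CPM and then 2085, 2294 and 1635 CPM. perm-2 and perm-4 are needed for the permeability barrier of the egg. Both were among the 12 largest fitted rises, picked with at most 2 genes for each symbol stem and at least 50 CPM. perm-4 went from 0, 0.0401 and 0.14 CPM to 1825, 1311 and 2096 CPM, and perm-2 had 1 count on day 1 and 76220 on day 2. egg-1, egg-3 and the chitin synthase chs-1, all needed at the egg surface, had log2 fold changes of 11.24 ± 0.33, 8.54 ± 0.20 and 8.29 ± 0.26. The smallest rise of the list was 1.56, in the kinase gene mbk-2, which was named after its value was seen.

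The RNA-binding proteins that oocytes hand on to the embryo showed the same direction in 18 of 18 genes, with a median log2 fold change of 10.11. oma-1, needed for the last steps of oocyte maturation, stood at 1.1, 0.562 and 1.03 CPM on day 1 and 448, 437 and 471 CPM on day 2. pos-1 (WBGene00004078, chromosome V, 8414086 to 8415254, plus strand), a zinc finger protein that directs posterior cell fates in the embryo, went from 0.965, 0.562 and 0.886 CPM to 1201, 1147 and 1236 CPM. Its log2 fold change was 10.54 ± 0.26 (edgeR, adjusted p = 4.24e-07), and its replicates stayed close together on both days. mex-5, another zinc finger protein that sets up embryonic polarity, rose from 1.14, 0.401 and 0.792 CPM to 965, 869 and 930 CPM. puf-5, a Pumilio protein of growing oocytes, showed the largest fold change of the list, 11.64 ± 0.30, with 1134, 969 and 1140 CPM on day 2. Members already present on day 1 changed less. mex-3, a KH-domain protein, was at 14.2, 12.2 and 14.5 CPM and then 554, 516 and 515 CPM. lin-41, which acts in oocytes and also in larval timing, was at 23.5, 26.4 and 46.1 CPM and then 333, 299 and 247 CPM.

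**Figure D2:**
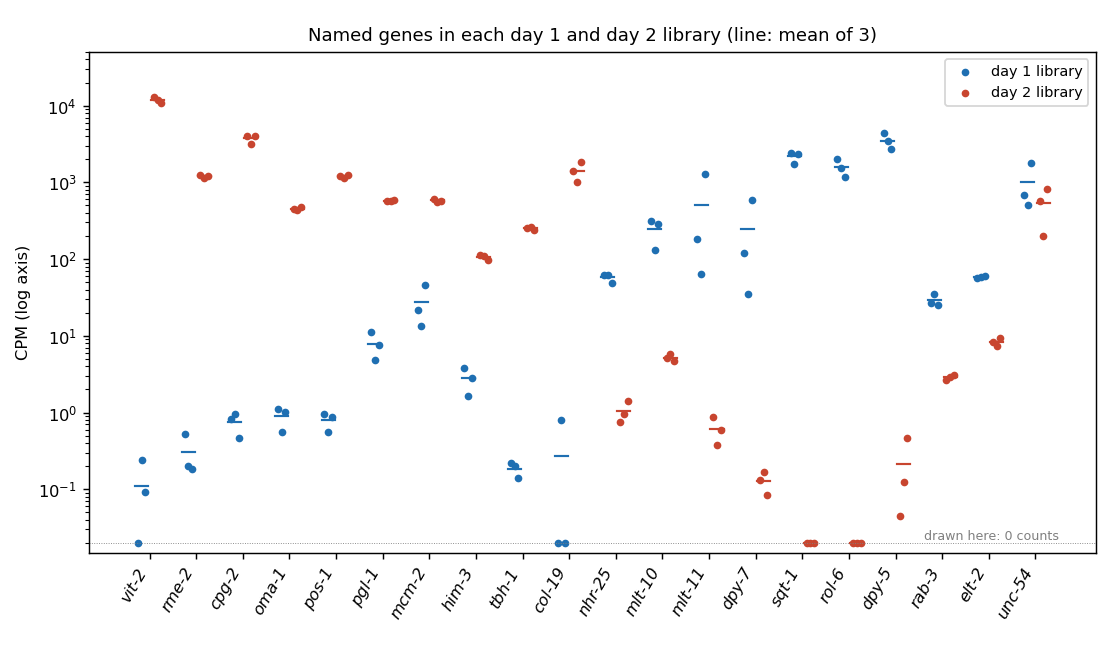
CPM (log axis) of 20 named genes in each of the 3 day 1 libraries and 3 day 2 libraries, with a line at the mean of each day and libraries without a count drawn at the dotted line. From vit-2 to col-19 every day 2 library lies above every day 1 library, the order is the opposite from nhr-25 to elt-2, and in unc-54 the days overlap.

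P granules, the RNA and protein bodies that mark germ cells, were represented by 13 genes, all of which rose (median log2 fold change 6.21). pgl-1, which encodes a scaffold of the granules, went from 11.3, 4.77 and 7.64 CPM to 574, 571 and 591 CPM, and glh-1, a Vasa-like helicase, from 33.8, 16.9 and 26.1 CPM to 532, 537 and 517 CPM. meg-1, an embryonic P granule component, had no count on day 1 and 165, 199 and 171 CPM on day 2. This made it at least 4120-fold higher, with the floor set at 3 counts over the 3 libraries, as for every lower bound below.

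Meiotic genes rose in 22 of 22 cases, with a median log2 fold change of 5.29, and each had at least 1 count on day 1. The him genes, named for the many males among the progeny of the mutants and partly in the same list, rose in 10 of 11 and fell in 1, with a median of 2.91. him-3, an axis protein of meiotic chromosomes, was at 3.86, 1.64 and 2.84 CPM on day 1 and 114, 111 and 97.5 CPM on day 2, a log2 fold change of 5.27 ± 0.30. spo-11, the enzyme that makes the breaks from which crossovers form, rose by 5.73 ± 0.29 and syp-1, part of the synaptonemal complex, by 3.90 ± 0.25 on the log2 scale. lab-1, which guards sister chromatid cohesion, stood out with 3 counts on day 1 and 43.4, 44.2 and 42.8 CPM on day 2, a ratio of 1003 (95% counting interval 343 to 4867).

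For DNA replication and the cell cycle, 21 of 23 genes rose, 1 fell and the median log2 fold change was 3.20. mcm-2, a subunit of the replicative helicase, went from 21.9, 13.6 and 46.3 CPM to 612, 559 and 572 CPM. pcn-1, the sliding clamp PCNA, went from 53.4, 39.1 and 119 CPM to 1046, 910 and 1072 CPM. In both, replicate 3 was the highest of the day 1 libraries, as it was in 16 of the 23 genes, yet it stayed below every day 2 library. The B-type cyclins differed in how far they rose. cyb-3 rose from 26.3, 23.8 and 34.5 CPM to 1656, 1465 and 1645 CPM, while cyb-2.1 and cyb-2.2 switched on, with log2 fold changes of 8.75 ± 0.26 and 9.89 ± 0.58. The gene that fell was cki-1, an inhibitor of cyclin-dependent kinases that holds cells out of division, with a log2 fold change of -3.25. It was named after its value was seen.

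Regulators of the change from sperm to oocytes mostly rose, 10 of 13 (76.9%, against 35.1% over all tested genes), and none fell. gld-1, a translational repressor needed for oocyte development, went from 2.24, 0.843 and 2.66 CPM to 880, 842 and 809 CPM. fem-3, which promotes the male fate, rose from 2.98, 1.2 and 2.66 CPM to 105, 99 and 88.3 CPM, and fog-2, which lets hermaphrodites make sperm, had a log2 fold change of 5.48 ± 0.29. fog-3, needed for germ cells to become sperm, was at 2.28, 0.682 and 1.82 CPM and then 0.932, 0.786 and 1.31 CPM, which did not pass the test (edgeR, adjusted p = 0.253).

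Most sperm genes were near the limit of detection on both days. The mutated gene itself, spe-9, had 10, 4 and 2 counts on day 1 and 0, 5 and 2 counts on day 2 and was too low to be tested, and its level does not check the genotype, since the allele changes the protein. Of the 24 sperm genes in the list, spe-9 included, 12 could be tested. Of these, 6 rose (50%, against 35.1% over all tested genes) and 1 fell. The call of the gene that fell was kept only without replicate 1 of day 1 when each library was left out in turn. spe-4, which acts in the membranous organelles of sperm, was at 1.67, 1.36 and 2.38 CPM and then 0.311, 0.745 and 0.972 CPM, and did not pass the test (edgeR, adjusted p = 0.0256). spe-44, a transcription factor of the sperm program, rose from 0.263, 0.0802 and 0.559 CPM to 24.9, 24.7 and 22.7 CPM. spe-39, which acts in vesicle traffic and is also expressed outside sperm, took most of the list's counts and rose from 27.2, 27.1 and 29.1 CPM to 84.0, 88.6 and 88.0 CPM. It was named after its values were seen. The major sperm proteins, the cytoskeletal proteins of crawling sperm, were called higher in 24 of 26 tested genes, but no member exceeded 3.64 CPM in a day 2 library. Of the 26, 17 had no count on day 1. Those 17 passed the count filter only through day 2 and could only be called higher. msp-78 had no count on day 1 and 2.22, 1.28 and 3.04 CPM on day 2, at least 50.2-fold higher. Its copies are near-identical, so the level of any one of them is uncertain. All 4 ssq genes and 5 of 7 tested ssp genes, small families named for sperm, were higher as well, with a highest value of 8.48 CPM. The same limit holds for 2 of the ssq and 4 of the tested ssp genes, which had no count on day 1.

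Genes switched on in the first cells of the embryo were tested as 6 of the 9 listed, and 5 were higher on day 2. Of the 6, 5 had no count on day 1, passed the count filter only through day 2 and could only be called higher. tbx-37 and tbx-38, T-box factors of the early embryo, had no count on day 1. On day 2 they had 15.6, 15.7 and 12.5 CPM and 18.4, 20.8 and 17.2 CPM, at least 337-fold and 434-fold higher. pes-10, an early embryonic transcript, was at 20.6, 23.1 and 17.5 CPM, at least 470-fold higher. The T-box family as a whole had 12 of 13 tested genes higher and 7 switched on (53.8%, against 3.48% over all tested genes). Among them were tbx-9 with 29.7, 26.8 and 23.4 CPM and tbx-43 with 10.6, 13.7 and 8.45 CPM. Neither had a count on day 1, so both were tested only through day 2. Endodermal end-3 was called too, but at 0.4, 0.579 and 0.296 CPM.

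Molting genes, which act largely in the epidermis, moved the other way. Of 26 molting genes, 24 fell and none rose, with a median log2 fold change of -5.56. mlt-10, a secreted protein made in each molt, was at 316, 131 and 286 CPM on day 1 and 5.1, 5.71 and 4.69 CPM on day 2. nhr-25, a nuclear receptor of the epidermis, fell from 61.8, 61.9 and 49.5 CPM to 0.755, 0.952 and 1.39 CPM, a log2 fold change of -5.79 ± 0.26 (edgeR, adjusted p = 1.94e-06). mlt-9 and qua-1, a hedgehog-related protein, both switched off. mlt-9 went from 384, 157 and 725 CPM to 0.0888, 0.372 and 0.507 CPM, and qua-1 from 514, 201 and 932 CPM to 0.4, 0.703 and 0.803 CPM. nas-37, the protease that helps to open the old cuticle, fell less, from 127, 64.8 and 329 CPM to 12, 15.5 and 12.64 CPM. The nuclear receptor gene nhr-23, which drives molting genes, was an exception. It stood at 7.8, 5.94 and 47 CPM on day 1 and at 46.2, 52.4 and 47.8 CPM on day 2, so that only replicate 3 of day 1 reached the day 2 range (edgeR, adjusted p = 0.142). Without that library nhr-23 was called higher (edgeR, adjusted p = 4.02e-06).

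The day 1 libraries did not match each other in these genes. mlt-11, a protease inhibitor of the cuticle (WBGene00012186, chromosome V, 20667205 to 20678537, plus strand), had 184, 64.8 and 1283 CPM on day 1 and 0.888, 0.372 and 0.592 CPM on day 2, a log2 fold change of -9.69 ± 1.42 (edgeR, adjusted p = 0.000464). In the molting list replicate 3 was the highest day 1 library for 16 of 26 genes and replicate 2 the lowest for 19. The ratio of the highest to the lowest library had a median of 5.89 on day 1 and 1.48 on day 2. Without replicate 3 of day 1, 24 molting genes were lower, 1 was higher, nhr-23, and the median was -4.83. Across the transcriptome, 481 of 9321 genes with a day 1 mean of 5 CPM or more ranged at least 4-fold among the day 1 libraries (5.16%), against 27 of 8272 genes on day 2 (0.326%). Of the 481, replicate 3 was highest in 250, replicate 2 in 189 and replicate 1 in 42.

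**Figure D3:**
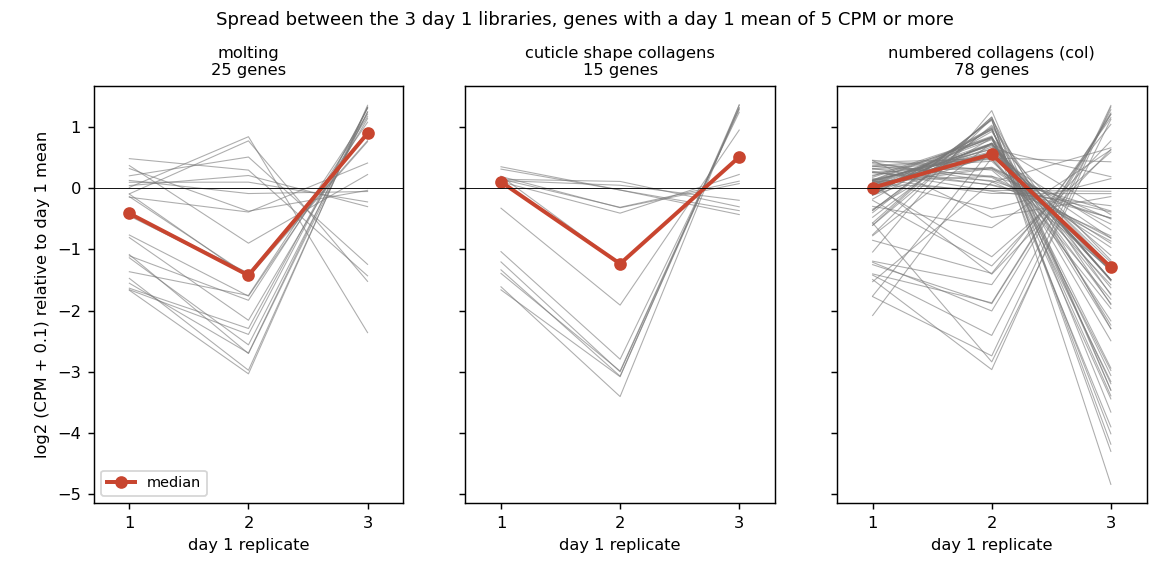
Level of each gene in the 3 day 1 libraries as log2(CPM + 0.1) relative to its day 1 mean, for 25 molting genes, 15 cuticle shape collagens and 78 numbered collagens with a day 1 mean of 5 CPM or more. Grey lines are genes and the red line is their median: replicate 3 is high and replicate 2 low for most molting genes, while many numbered collagens run the other way.

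The collagens named for the body shape of their mutants fell to a small remnant. Of 18 tested, 15 fell, 1 rose and the median log2 fold change was -10.20, and their share of all gene counts went from 2.47, 1.89 and 2.27% to 0.0021, 0.0015 and 0.0028%. sqt-1 (WBGene00005016, chromosome II, 11336693 to 11337837, minus strand) had 2415, 1754 and 2360 CPM on day 1 and no count in any day 2 library, at least 50651-fold lower. rol-6 likewise went from 2025, 1556 and 1178 CPM to no count, at least 37370-fold lower. Mutations in both genes are known for making animals roll. dpy-5 and dpy-13, whose loss makes animals short, fell from 4357, 3436 and 2721 CPM and from 3258, 3178 and 2383 CPM to under 1 CPM in every day 2 library. sqt-3 was still counted in every day 2 library, with 4383, 3074 and 4766 CPM on day 1 and 7.99, 4.59 and 11.2 CPM on day 2. dpy-7, a collagen of the furrows, repeated the uneven day 1 pattern of the molting genes, with 120, 35.3 and 582 CPM on day 1 and 0.133, 0.166 and 0.0845 CPM on day 2. bli-1 and bli-2, collagens of the struts of the adult cuticle, were low already on day 1, bli-1 at 1.18, 1.48 and 4.85 CPM and bli-2 at 15.3, 5.02 and 37.1 CPM. On day 2 bli-1 had 0.533, 0.414 and 1.14 CPM, which did not pass the test (edgeR, adjusted p = 0.0352). The member that rose was dpy-17, by 1.97 on the log2 scale, named after its value was seen.

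The numbered collagens changed in both directions within the same 24 hours. Of 124 tested, 34 rose (27.4%, under the 35.1% over all tested genes) and 69 fell (55.6%, against 35.7%). Among them 14 switched on (11.3%) and 24 switched off (19.4%), against 3.48 and 3.64% over all tested genes. The family held 4.18, 5.73 and 1.90% of the gene counts on day 1 and 3.03, 2.28 and 4.31% on day 2. col-19 (WBGene00000608, chromosome X, 421707 to 422691, plus strand), widely used as a marker of the adult epidermis, was at 0, 0.802 and 0 CPM on day 1 and at 1387, 1013 and 1834 CPM on day 2, a log2 fold change of 12.26 ± 1.05 (edgeR, adjusted p = 2.85e-05). col-178 went from 0, 0.201 and 0 CPM to 1647, 1200 and 2252 CPM and col-8 from 0.0438, 0 and 0.0466 CPM to 1445, 1238 and 2017 CPM. col-95 had no count on day 1 and 612, 503 and 735 CPM on day 2, at least 14203-fold higher. In the opposite direction, col-17 (WBGene00000606, chromosome II, 4866436 to 4867576, minus strand) fell from 3790, 3206 and 3200 CPM to 0, 0.166 and 0 CPM. col-172 fell from 491, 589 and 332 CPM to 2 counts in all, and col-34 from 940, 1325 and 531 CPM to 6.21, 4.22 and 12.4 CPM. In the 4 collagens that rose, replicate 2 was the lowest of the day 2 libraries and replicate 3 the highest.

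Collagen-processing enzymes fell in 7 of 10 cases (70%, against 35.7% over all tested genes) and by less, with a median log2 fold change of -1.78. phy-2 and dpy-18, subunits of the prolyl hydroxylase that matures collagen, had log2 fold changes of -3.41 ± 0.28 and -2.50 ± 0.27. bli-3, the dual oxidase that cross-links the cuticle, went from 30.3, 43.4 and 29.5 CPM to 8.92, 11.8 and 9.72 CPM. The protease gene bli-4 was at 122, 108 and 228 CPM and then 244, 251 and 247 CPM, which did not pass the test (edgeR, adjusted p = 0.0468) but did without replicate 3 of day 1 (edgeR, adjusted p = 7.52e-05).

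Other cuticle-linked families followed the molting genes. Cuticlins fell in 21 of 31 tested members (67.7%) and rose in 1 (3.23%), against 35.7 and 35.1% over all tested genes. cut-2, an insoluble cuticle protein, went from 1753, 2121 and 756 CPM to 0.0444, 0.0414 and 0.465 CPM. Hedgehog-like genes, a nematode family of secreted proteins expressed largely in epidermis, fell in 26 of 39 (66.7%) and rose in 2 (5.13%). grl-7 had 546, 221 and 606 CPM on day 1 and no count on day 2, at least 10497-fold lower. wrt-8, with 74.8, 106 and 19 CPM, also had no count on day 2, at least 1612-fold lower, and its lowest day 1 library was the one in which grl-7 was highest. Patched and patched-related membrane proteins, the hedgehog receptor of other animals and its relatives, fell in 17 of 25 (68%) and rose in 3 (12%). ptr-4 went from 299, 166 and 488 CPM to 0.133, 0.248 and 0.169 CPM and ptr-18 from 420, 350 and 336 CPM to 1.86, 1.74 and 2.2 CPM. Astacin metalloproteases fell in 16 of 26 tested (61.5%) and rose in 3 (11.5%). Those that fell included nas-29 with a log2 fold change of -8.19 ± 0.27 and nas-38 with -8.17 ± 0.70. The lipocalin lpr-3, which acts in the layer that precedes the cuticle, fell from 114, 43.9 and 925 CPM to 0.311, 0.124 and 0.296 CPM.

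The heterochronic pathway, which times larval development, had 4 of 12 genes higher (33.3%), near the 35.1% over all tested genes. It had 7 lower (58.3%, against 35.7%). lin-14, which specifies the earliest larval fates, fell from 25, 29.5 and 28 CPM to 4.04, 4.76 and 4.86 CPM. lin-29, the zinc finger factor that triggers the adult program of the epidermis, fell from 34.6, 37.4 and 91.8 CPM to 2.75, 3.1 and 3.21 CPM, a log2 fold change of -4.17 ± 0.43 (edgeR, adjusted p = 7.14e-05). lin-42, a Period-related gene that cycles with the molts, fell from 213, 106 and 765 CPM to 6.97, 5.34 and 4.82 CPM. In the opposite direction lin-28, an RNA-binding protein that restrains let-7 microRNA, rose from 11, 11 and 13.8 CPM to 65.3, 59.8 and 59.4 CPM, and lin-41, given above, also rose.

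**Figure D4:**
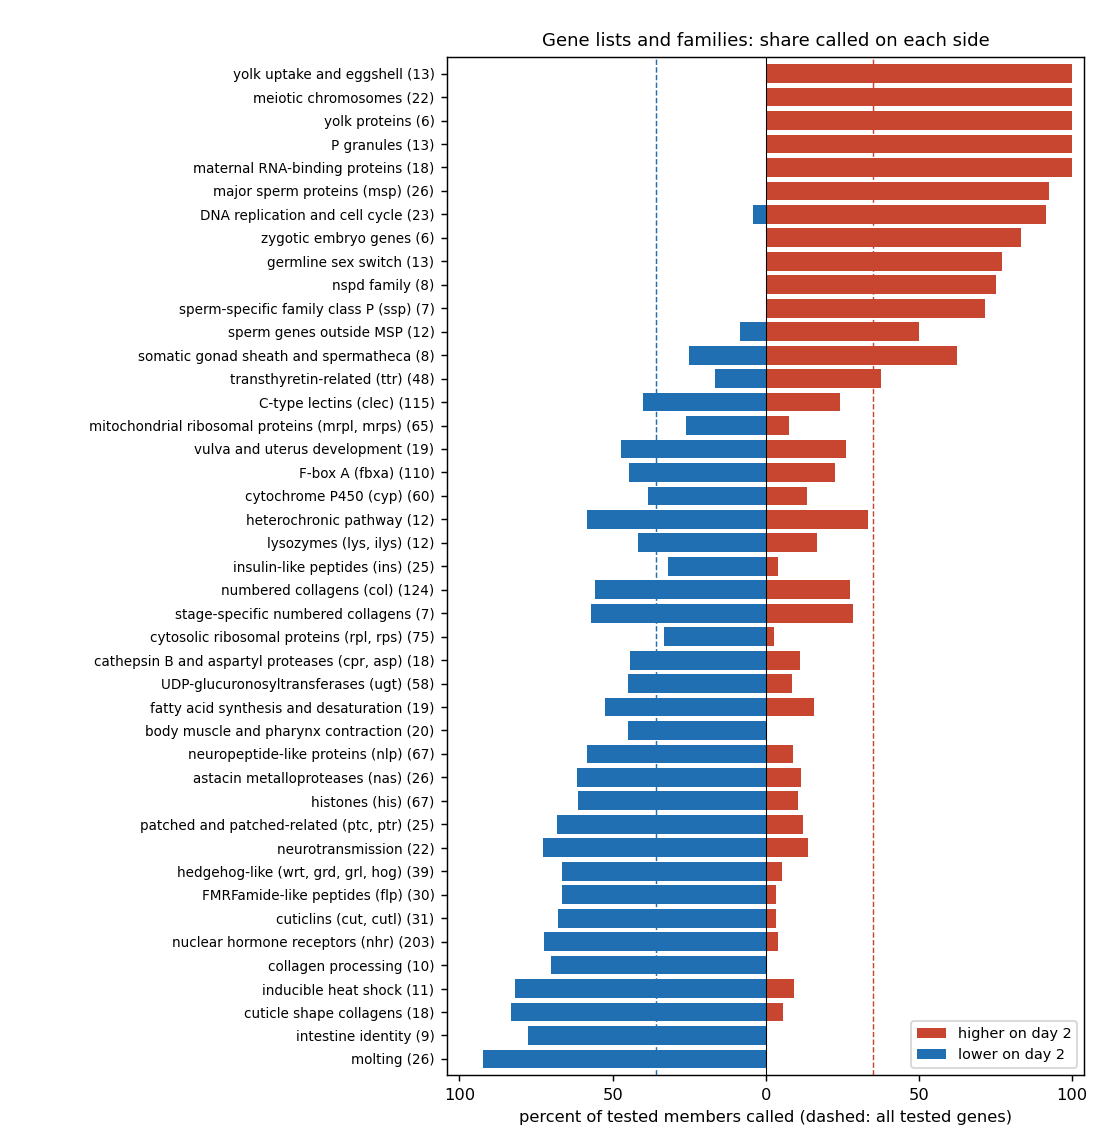
Percent of the tested members of each gene list or family that were called higher (right) or lower (left) on day 2, with the number tested in brackets and dashed lines at 35.1 and 35.7%, the shares over all tested genes. Germline and oocyte lists fill the right side and molting, shape collagens and collagen processing the left, while numbered collagens and C-type lectins extend to both.

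Of 19 vulval and uterine genes, 5 were higher (26.3%) and 9 lower (47.4%), against 35.1 and 35.7% over all tested genes. lin-3, the EGF signal, rose from 0.921, 0.481 and 0.746 CPM to 51.6, 54.9 and 50.8 CPM, while its receptor gene let-23 fell from 11.4, 12.32 and 10.3 CPM to 2.71, 6.66 and 3.38 CPM (edgeR, adjusted p = 0.00681). The call of let-23 was lost without replicate 1 or 2 of day 1 or replicate 1 or 3 of day 2 (edgeR, adjusted p = 0.0159 to 0.0275) and with scaling by relative log expression (edgeR, adjusted p = 0.0101). The Notch ligand gene apx-1 rose from 1.53, 0.562 and 1.54 CPM to 175, 153 and 169 CPM, and the Notch receptor gene lin-12 fell from 31.3, 14.4 and 48.5 CPM to 3.64, 6.08 and 3.25 CPM. lin-3, apx-1 and lin-12 are also expressed outside the vulva. egl-38, a Pax factor of the uterus and vulva, switched off with a log2 fold change of -5.37 ± 0.27. egl-17, an FGF of vulval cells, was under 1 CPM in all 6 libraries.

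In the gonadal sheath and spermatheca, 5 of 8 genes rose (62.5%) and 2 fell (25%), against 35.1 and 35.7% over all tested genes. inx-8 and inx-9, gap junction proteins that couple the sheath to germ cells, went from 1.97, 0.843 and 0.186 CPM to 121, 126 and 119 CPM and from 1.89, 1 and 0.606 CPM to 22.9, 22.9 and 20.6 CPM. ceh-18, a POU factor of sheath cells, fell from 25.9, 28.5 and 20.6 CPM to 3.73, 4.8 and 5.07 CPM. lim-7, a sheath LIM factor, was at 8.9, 8.22 and 9.93 CPM and then 5.5, 6.37 and 5.37 CPM, which did not pass the test (edgeR, adjusted p = 0.0164).

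Markers of the other large tissues were lower on day 2 or did not pass the test, with few exceptions. The germline lists above took a larger share of the counts in the same libraries, and the part of this shift in the falls below was not tested. Of 9 intestinal genes 7 fell (77.8%, against 35.7% over all tested genes) and none rose, with a median log2 fold change of -2.30. elt-2, the GATA factor of the intestine, fell from 55.9, 58.2 and 60 CPM to 8.21, 7.32 and 9.38 CPM. act-5, the actin of microvilli, fell from 1605, 1964 and 2069 CPM to 394, 309 and 418 CPM, whereas ges-1, a gut esterase, was at 25.8, 35.8 and 29 CPM and then 17.1, 18.1 and 23.3 CPM (edgeR, adjusted p = 0.0162). The intestinal markers were thus lower on the day on which the vitellogenins, made in the same tissue, were high.

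Muscle genes fell in 9 of 20 cases (45%, against 35.7% over all tested genes), in 5 without replicate 1 of day 2, and none rose. The troponin gene tni-1 had the largest fall, from 329, 255 and 315 CPM to 9.41, 8.69 and 13.1 CPM. myo-3, a body wall myosin heavy chain, fell from 135, 105 and 235 CPM to 30.4, 19.5 and 33.9 CPM. unc-54, the major myosin heavy chain of body wall muscle, was at 680, 514 and 1814 CPM and then 578, 198 and 830 CPM, and the days overlapped (edgeR, adjusted p = 0.208). The pharyngeal myosin gene myo-2 was at 3.51, 0.281 and 0.513 CPM and then 3.2, 0.538 and 7.35 CPM (edgeR, adjusted p = 0.278). Muscle genes held 0.450, 0.337 and 0.627% of gene counts in the day 2 libraries, lowest in replicate 2, and 1.18, 0.842 and 1.34% in the day 1 libraries.

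Genes of neurotransmission fell in 16 of 22 cases (72.7%) and rose in 3 (13.6%), against 35.7 and 35.1% over all tested genes. Their median log2 fold change was -2.62. rab-3, a synaptic vesicle GTPase, fell from 26.9, 35.1 and 25.2 CPM to 2.62, 2.94 and 3.09 CPM, and unc-13, which primes vesicles, had a log2 fold change of -4.03 ± 0.32. unc-47, the vesicular GABA transporter, fell from 4.43, 4.33 and 3.54 CPM to 0.178, 0.29 and 0.211 CPM. tbh-1 (WBGene00006541, chromosome X, 15500256 to 15504895, minus strand), which makes octopamine from tyramine and is known from gonadal sheath cells as well as neurons, went against the list. It rose from 0.219, 0.201 and 0.14 CPM to 258, 264 and 240 CPM, a log2 fold change of 10.36 ± 0.19 (edgeR, adjusted p = 2.76e-07). tph-1, the serotonin-making enzyme, and cat-2, the dopamine-making enzyme, were under 1 CPM in all 6 libraries.

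The flp and nlp neuropeptide genes were lower more often than higher. FMRFamide-like peptide genes fell in 20 of 30 tested (66.7%) and rose in 1 (3.33%). Neuropeptide-like genes fell in 39 of 67 (58.2%) and rose in 6 (8.96%). Over all tested genes 35.7% were lower and 35.1% higher. flp-15 went from 71.2, 79.1 and 85.2 CPM to 2.93, 2.19 and 4.69 CPM, and nlp-17 from 75.5, 71.5 and 73.2 CPM to 2, 0.952 and 3.17 CPM. nlp-30, an epidermal antimicrobial peptide gene, fell from 33.9, 24.2 and 29.2 CPM to 0.266, 0.0828 and 0 CPM. Insulin-like genes were lower in 8 of 25 cases (32%), near the 35.7% over all tested genes, and higher in 1. Without replicate 1 or replicate 2 of day 2, 5 were lower, and without replicate 1 of day 1, 2 were higher. ins-18 went from 11.6, 12.4 and 11.9 CPM to 0.666, 0.372 and 0.972 CPM. Among sensory families, the mec genes, needed for touch sensation, fell in 15 of 16 cases (93.8%) and rose in 1. mec-7, a tubulin of touch neurons, fell from 253, 300 and 268 CPM to 5.82, 4.72 and 7.57 CPM. The frpr receptors of FMRFamide-type peptides fell in 16 of 20 (80%) and the srh receptors in 21 of 27 (77.8%). The srw receptors fell in 10 of 11 tested (90.9%) and rose in 1. The dyf genes of ciliated neurons fell in 9 of 12 (75%) and rose in 2. The glb globins fell in 24 of 31 (77.4%) and rose in 2. Most srh and srw genes were at or under a few CPM on day 1, as in srh-15 with 0.658, 1.24 and 1.26 CPM and no count on day 2. Members with under 5 counts in every day 2 library passed the count filter only through day 1. These could only be called lower, and their number was not counted, so the srh and srw counts are no measure of direction. The remaining stems with a large share of lower members were lron, irld and nep. lron had 12 of 14 lower (85.7%), irld 11 of 13 (84.6%) with 1 higher, and nep 9 of 12 (75%) with 2 higher.

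Nuclear hormone receptors, a family that is greatly expanded in nematodes, fell in 147 of 203 tested members (72.4%) and rose in 8 (3.94%). The shares over all tested genes were 35.7 and 35.1%. The median log2 fold change of the family was -1.88. nhr-2, an embryonic receptor, was the member with the largest rise, from 0, 0.12 and 0.0466 CPM to 35.1, 41.2 and 33.4 CPM. nhr-157, nhr-167 and nhr-252 had under 2 CPM in every day 1 library and no count on day 2, at least 27.1-fold, 24.7-fold and 17.3-fold lower.

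Machinery that all cells use moved by smaller steps. All 11 rpb genes, subunits of RNA polymerase II, and all 13 rpn genes, subunits of the proteasome, rose, with median log2 fold changes of 1.47 and 0.93. Nucleoporins rose in 25 of 26 (median 1.72), prp splicing factors in 12 of 13 (1.17), ints subunits of the Integrator complex in 10 of 11 (1.64) and cdk kinases in 10 of 11 (1.07), with 1 cdk gene lower. npp-9 may stand for the nucleoporins, with 155, 147 and 220 CPM on day 1 and 837, 800 and 794 CPM on day 2. rpn-6.2 was unlike the other proteasome genes in being low at first, with 1.84, 1.52 and 2.24 CPM and then 22.8, 22.5 and 20.6 CPM.

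Cytosolic ribosomal proteins held 16.52, 14.5 and 16.96% of gene counts on day 1 and 11.3, 9.80 and 10.9% on day 2. Of 75 tested, 25 were called lower (33.3%) and 2 higher (2.67%), against 35.7 and 35.1% over all tested genes. With the other scalings given above, relative log expression and library size, 17 and 39 were lower, with medians of -0.29 and -0.55. Without replicate 1 of day 2, 14 were lower. The pair rpl-11.1 and rpl-11.2, both named for ribosomal protein L11, went in opposite directions. rpl-11.1 rose from 210, 114 and 158 CPM to 2396, 1967 and 2211 CPM, and rpl-11.2 fell from 2777, 2543 and 3199 CPM to 532, 363 and 534 CPM, with log2 fold changes of 3.77 ± 0.25 and -2.58 ± 0.20 that exceed the shifts between scalings. Mitochondrial ribosomal proteins were called lower in 17 of 65 (26.2%), under the share over all tested genes, and higher in 5 (7.69%). With relative log expression 10 were lower and 7 higher, with library size 24 and 3, and when a library was left out 9 to 17 were lower and 2 to 5 higher. Among the genes with the highest CPM on day 1, the elongation factor genes eef-1A.1 and eef-2 and the mitochondrial gene WBGene00010964 (7827 to 9428 on MtDNA) did not pass the test. eef-1A.1 was at 5378, 5126 and 9365 CPM and then 12072, 10077 and 11552 CPM (edgeR, adjusted p = 0.0258), and it was called higher without replicate 3 of day 1 (edgeR, adjusted p = 0.000822). ahcy-1, S-adenosylhomocysteine hydrolase, fell from 3936, 4280 and 5805 CPM to 2251, 1834 and 2574 CPM, a call lost without replicate 1 of day 2 (edgeR, adjusted p = 0.0102).

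Histone genes fell in 41 of 67 tested members (61.2%) and rose in 7 (10.4%), against 35.7 and 35.1% over all tested genes. The RNA was enriched for poly(A) tails, which most replication-dependent histone transcripts lack, and the copies are near-identical, so these levels are uncertain. his-74, an H3.3-type variant, rose from 11.7, 5.7 and 8.25 CPM to 406, 325 and 363 CPM, whereas his-3 fell from 26.6, 17.7 and 27.3 CPM to 0.577, 0.579 and 0.592 CPM.

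Families of gut, defence and metabolism were mixed. Their shares are given beside the 35.1% higher and 35.7% lower over all tested genes, and several lay near these. C-type lectins, carbohydrate-binding proteins, rose in 28 (24.3%) and fell in 46 (40%) of 115 tested. clec-87 rose from 1.18, 0.321 and 1.07 CPM to 2380, 2042 and 2381 CPM, and clec-230 fell from 73.7, 111 and 16.9 CPM to no count. Lysozymes rose in 2 (16.7%) and fell in 5 (41.7%) of 12. lys-7 went from 4.47, 1.69 and 2.1 CPM to 53.6, 35.8 and 129 CPM and lys-4 from 307, 241 and 484 CPM to 34.6, 32.3 and 49.3 CPM. Cathepsin B and aspartyl proteases fell in 8 of 18 (44.4%) and rose in 2 (11.1%), or in 1 to 5 when a library was left out. Of 11 tested genes in a list of heat shock genes, 9 fell (81.8%) and 1 rose (9.09%), the small heat shock gene hsp-43. It went from 15.5, 14 and 31.8 CPM to 92.2, 91.4 and 92.6 CPM and was named after its values were seen. hsp-16.2 fell from 42.1, 28.3 and 72.1 CPM to 1.33, 1.41 and 1.9 CPM, and F44E5.4, an Hsp70 gene whose neighbour F44E5.5 is a near-identical copy, from 62.3, 74.8 and 66.5 CPM to 2, 2.73 and 2.41 CPM. Of 19 genes for making and desaturating fatty acids, 10 fell (52.6%) and 3 rose (15.8%), or 1 to 5 when a library was left out. fat-7, a stearoyl-CoA desaturase, fell from 116, 137 and 62.9 CPM to 15.4, 15.6 and 9.17 CPM, while fat-2 was at 523, 566 and 771 CPM and then 740, 694 and 804 CPM (edgeR, adjusted p = 0.194). Cytochrome P450 genes fell in 23 of 60 (38.3%), near the share over all tested genes, and rose in 8 (13.3%). cyp-31A2, which acts in making the lipid layer of the eggshell, rose from 0.526, 0.321 and 0.28 CPM to 168, 153 and 159 CPM. UDP-glucuronosyltransferases fell in 26 of 58 (44.8%) and rose in 5 (8.62%), or in 3 without replicate 1 of day 1 or replicate 2 or 3 of day 2. The transthyretin-related family rose in 18 of 48 (37.5%), near the share over all tested genes. It fell in 8 (16.7%), or in 5 without replicate 1 or 2 of day 2. ttr-42 had no count on day 1 and 71.2, 60.3 and 57.5 CPM on day 2, at least 1449-fold higher.

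Among the 12 largest fitted rises, picked with at most 2 genes for each symbol stem and at least 50 CPM, were several genes outside these lists. ule-5 and ule-2, named for uterine lumen expression, had no count on day 1. On day 2 ule-5 was at 698, 615 and 572 CPM and ule-2 at 139, 120 and 117 CPM, at least 14458-fold and 2886-fold higher. Y62H9A.5, which lies next to ule-5 on the X chromosome, had 878, 756 and 745 CPM and no count on day 1, at least 18249-fold higher, and ZK813.1 had 307, 272 and 286 CPM, at least 6642-fold higher. skr-7, a Skp1-related gene, had 115, 112 and 92 CPM on day 2 after no count on day 1, at least 2450-fold higher. The largest fitted falls outside the lists, picked in the same way, included T06G6.6, R12E2.14 and lpr-4. T06G6.6 went from 147, 35.2 and 361 CPM and R12E2.14 from 150, 237 and 9.23 CPM to no count, and their day 1 libraries stood in opposite order.

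The later days of the series show how long these changes lasted, on a scale fitted to all 34 libraries and with no test. Of the 519 genes switched on, 350 (67.4%) stayed at 5 CPM or more in all 28 libraries of days 3 to 12. Their median level was 29.4 CPM on day 2, 30.1 on day 3, 24.1 on day 6, 19.4 on day 9 and 16.08 on day 12. Of the 543 genes switched off, 160 (29.5%) stayed under 1 CPM in all later libraries, and 81 reached 5 CPM in at least 1 of them. rme-2 had 1493 CPM on day 2 and 1020 on day 12, while vit-2 went from 14822 to 1524 CPM over the same days. col-19 was highest on day 2 and stayed above its day 1 mean of 0.338 CPM. Its daily mean was 1757 CPM on day 2, 187 on day 3, 93.9 on day 4, 175 on day 5 and 7.67 on day 12. The summed level of the numbered collagens was 47420 CPM on day 1, 42131 on day 2, 10729 on day 3 and 556 on day 12. mlt-11 was at 0.769 CPM on day 2 and 36.5 on day 6 and sqt-3 at 9.86 and 74.8, all far under their day 1 means of 638 and 5152 CPM. The summed level of the cuticle shape collagens was 26695 CPM on day 1, 28.2 on day 2 and 368 on day 6. The muscle genes had sums of 13582 CPM on day 1, 6191 on day 2 and 1814 on day 3, and unc-54, which did not pass the test between days 1 and 2, was at 668 CPM on day 2 and 160 on day 3. lys-7 was at 90.7 CPM on day 2 and 2175 on day 5. hsp-16.2, at 1.92 CPM on day 2, was at 92.4 CPM on day 11.

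**Figure D5:**
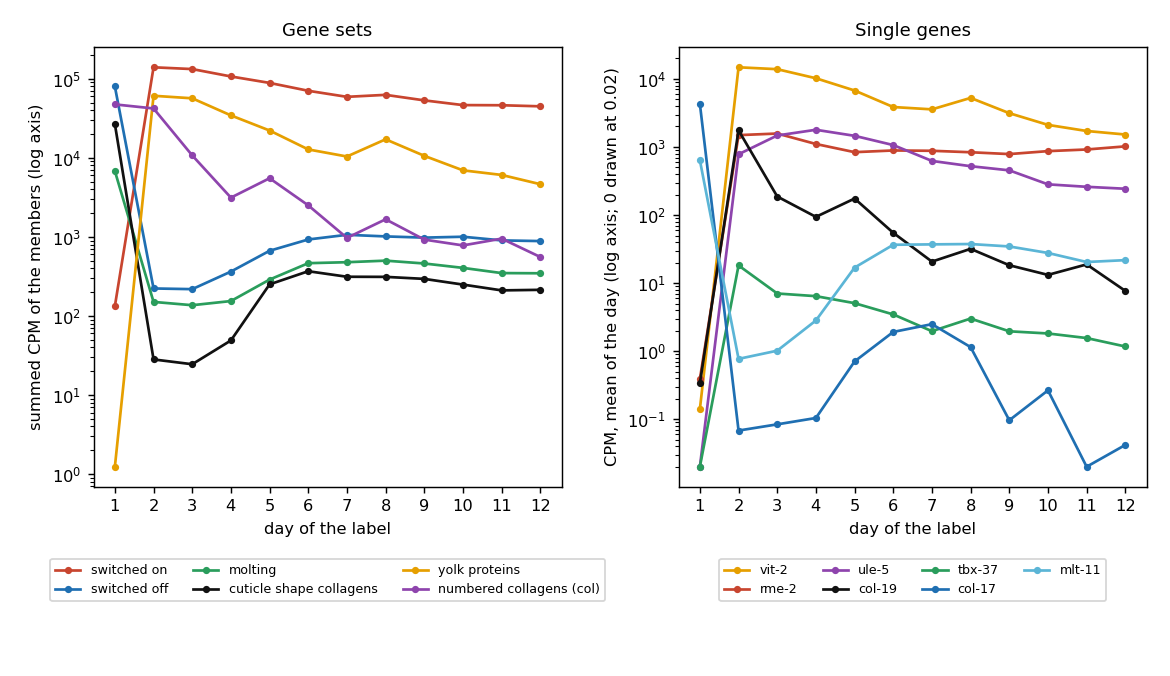
Left, summed CPM (log axis) of 6 gene sets on each day; right, mean CPM (log axis) of 7 single genes, with 0 drawn at 0.02. Days have 3 libraries, except days 8 and 12 with 2, and the steepest change in most lines lies between days 1 and 2, with col-19 and the numbered collagens falling again from day 2 to day 3.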

How the data were processed

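Whole-body total RNA was enriched by oligo(dT), depleted of rRNA and primed with random hexamers. The authors deposited raw counts per gene, made with STAR 2.7.3a and featureCounts (version not given in the sources used here) on WBcel235 according to the submitters' processing notes. Handling of strands is not given there, so overlapping and antisense genes cannot be told apart. Positions are those of Ensembl release 115.

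The 3 day 1 and 3 day 2 libraries were fitted with edgeR 4.0.16 (glmQLFit, glmQLFTest) in R 4.3.3 with TMM scaling and no replicate block. Of 20222 genes, the 14911 with at least 5 counts in 3 of the 6 libraries were tested. Their p-values were adjusted over all 14911 by the Benjamini-Hochberg method and called at 0.01. A gene with under 5 counts in every library of 1 day passed this filter only through the other day. Such a gene could only be called higher on that other day. Standard errors are the absolute log2 fold change divided by the square root of the F statistic. An entry named transgene was left out. Later levels used TMM over all 34 libraries. Lower bounds set a floor of 3 counts over a day's libraries and counting intervals are exact (Clopper-Pearson, 95%), both covering counting error only. At these depths 1 count is under 0.05 CPM.

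Named genes were the key members of each list, the 12 largest fitted rises and 12 largest fitted falls among called genes with a mean of at least 50 CPM on the higher day (at most 2 for each symbol stem), up to 4 called members with the largest change in each described list or family, and the 6 genes with the highest mean CPM on each day. Families were the 8 symbol stems of at least 10 tested genes with the largest share higher and lower, with ties. The samples compared and the lists were chosen with earlier results of these data known. DESeq2 1.42.0, other scalings and filters, a replicate block and leaving out each library were run as alternatives. The fit was also run on simulated counts with far fewer changed genes than were called here. That run therefore does not test the scaling for these data.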

Additional observations from a re-analysis of the deposited data

Results flagged for a closer look

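Reads were also counted on an entry named transgene, which the comparisons leave out. It had 107, 88 and 262 counts in the day 1 libraries and 69, 31 and 106 counts in the day 2 libraries, and between 2 and 36 in the 28 libraries of days 3 to 12. It drew attention because a signal stands in an entry outside the genes, above the limit of 3 counts that a count of 0 allows, and the highest value, 262, lay in replicate 3 of day 1. The labels do not describe this entry.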

How the results depend on the processing

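The number of called genes stayed between 7516 and 12042 over all alternatives run, and no alternative moved the share of called genes that were higher by more than 10 percentage points (46.6 to 52.9%). Requiring 5 counts in 75% of the libraries, which removes genes absent on 1 day, left 187 genes switched on and 338 switched off. Leaving out each library in turn gave 8904 to 10620 called genes, 4559 to 5281 higher, 4345 to 5339 lower, 523 to 591 switched on and 559 to 648 switched off. With a replicate block 9545 genes were called, 4765 higher and 4780 lower. Deviations of same-numbered libraries from their day means correlated at -0.013, 0.067 and 0.0058. Replicates 1 and 3 of day 1 correlated best with replicates 3 and 1 of day 2. Such small correlations over 3 libraries a day cannot decide whether same-numbered libraries came from 1 population. The labels do not say so either, and the main fit did not treat the numbers as pairs. Genes that were not called changed sign as follows, and the cause was not tested. WBGene00010964, at -0.03, was at 0.0939 with relative log expression and with DESeq2 and at 0.24 with the length trend removed. With 1 library left out at a time it ranged from -0.133 to 0.0546, cat-2 from -0.121 to 1.80, egl-17 from -0.988 to 0.241 and myo-1 from -0.584 to 1.29. Of the 323 named genes, 20 lost their call with the block and at most 17 in any leave-one-out fit. Genes near 1 CPM rest on about 20 to 25 counts a library, so their levels carry a large counting error.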

Other observations

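Several further families were picked out after their values were seen, so their counts are a description. The fbxb genes, which carry F-box domains, were higher in 87 of 96 tested members with none lower, and 7 switched on. Their summed level was 4.12, 5.62 and 5.78 CPM on day 1 and 272, 308 and 247 CPM on day 2. Members without a count on day 1 passed the count filter only through day 2 and could only be called higher. Their number was not counted, so the share of members called higher is no measure of direction, while the summed level rose. The bath genes, with MATH and BTB domains, were higher in 29 of 35 and lower in 3, with 11 switched on (31.4%). The math genes, which also carry MATH domains, were higher in 3 of 21 and lower in 13. The Skp1-related skr genes were higher in 12 of 18 and lower in 2, with 8 switched on (44.4%). The sdz genes, named for dependence on the embryonic factor SKN-1, were higher in 26 of 29 tested members and lower in 1, with 7 switched on (24.1%). The limit given for the fbxb genes holds for sdz members without a count on day 1 as well, and these were not counted either. The fbxa family, which is related to fbxb, had 25 of 110 tested members higher (22.7%) and 49 lower (44.5%). Over all tested genes 35.1% were higher, 35.7% were lower and 3.48% switched on. Some of these families hold near-identical copies.

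Among the nuclear chromosomes, the X had the lowest share of tested genes higher on day 2, 16.3% of 2244, and the highest share lower, 55.3%. Chromosome V had 27.6% higher and 43.4% lower. On chromosomes I, II, III and IV between 38.4 and 45.4% were higher and between 25.0 and 32.01% lower. The X took 11.0, 11.4 and 11.8% of gene counts on day 1 and 8.76, 8.91 and 8.90% on day 2, although the vitellogenins vit-2 to vit-5 lie on it.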
